A study of Mus musculus with 18 samples.

Results

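The FoxO transcription factors and the ubiquitin ligases of muscle atrophy were followed by every non-control array probe that carries the gene name Foxo1, Foxo3, Foxo4, Fbxo32, Trim63, Fbxo30, Fbxo31 or Mstn. These are 8 of 35527 gene names on the array, and the rule found 14 probes for them, on 23 spots, among 55681 probe names. The probes were taken by gene name, and the genes were listed with earlier results of these data known.

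RNA was measured on single-colour arrays in nuclei and in cytoplasm of single myofibers, the multinucleated cells that make up skeletal muscle. Fibers were taken from the slow soleus and from the fast extensor digitorum longus (EDL) and tibialis anterior (TA). RNA of 5 to 10 fibers was pooled for an array, and 3 arrays were run per muscle and fraction, which makes 18. All mice were untreated CD1 females aged 3 months with no altered allele, and fibers were freed with collagenase, lysed in a detergent buffer and spun to separate nuclei from the rest. In EDL and soleus the pools were of mice 3 and 4, 5 and 6, and 7 and 8, in both fractions. TA cytoplasm 1 was from mice 5 and 1, TA cytoplasm 2 from mice 5 and 2, TA cytoplasm 3 from mouse 9, and TA nuclei from mice 1, 2 and 3. A pool of fibers holds whatever cells stay attached to them, and in such samples fewer cells of a type and less RNA per cell cannot be told apart.

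FoxO factors turn on genes for protein breakdown when insulin and IGF signalling is low, because the kinase Akt phosphorylates them and keeps the proteins out of the nucleus. Fbxo32 (atrogin-1) and Trim63 (MuRF1) are the classic FoxO-driven ubiquitin ligases of wasting muscle, Fbxo30 (MUSA1) and Fbxo31 are further F-box subunits of SCF ligases, and Mstn encodes myostatin, a secreted ligand of the TGF-beta family that limits muscle mass. The arrays give a transcript's level relative to the other RNA of its fraction, not its copies in each, and do not measure the proteins.

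The probes are 60-base oligonucleotides, and their place decides which part of a transcript each one reads. The 3 sequences that follow are those of probes whose values carry results given further on, the Foxo1 probe called in every muscle, the Trim63 probe nearer the transcript's start, and the Fbxo30 probe that crosses an exon junction.
Foxo1 A_51_P138044: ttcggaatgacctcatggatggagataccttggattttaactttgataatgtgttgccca
Trim63 A_55_P2106745: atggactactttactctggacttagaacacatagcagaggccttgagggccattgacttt
Fbxo30 A_66_P123804: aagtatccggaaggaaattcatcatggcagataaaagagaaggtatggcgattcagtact
The Foxo1 probe lies on the plus strand at chr3:52150183-52150242 and the Trim63 probe on the plus strand at chr4:133881557-133881616, in mm9 as the array files give it. The Fbxo30 probe covers chr10:11011329-11015032 on the plus strand, 3704 bases of genome for 60 bases of probe, so it spans an intron. The second Foxo1 probe, A_52_P453884, starts 3106 bases further along the chromosome at chr3:52153289-52153348, the second Trim63 probe, A_52_P517224, lies at chr4:133885025-133885084, and the second Fbxo30 probe, A_51_P223036, at chr10:11016601-11016660. That last probe holds the 19-base stretch GATTCATATGTCCCATATA at 2 places, starting at its bases 4 and 42.

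Foxo3 and Foxo4 each have probes to different transcript records, which gave different results, and the first 30 bases are shown for the Foxo3 probes and for the overlapping Foxo4 probes.
Foxo3 A_55_P2150896: taaaagcagaaggaaggtgttatatcagtt
Foxo3 A_55_P2129309: gtctatagccaagttttgtagagccagtgg
Foxo4 A_55_P2113026: GCTAAGGATTGGTGGCAACACACTCAAGTG
Foxo4 A_55_P2150901: actttagaGCTAAGGATTGGTGGCAACACA
Capitals mark bases that these 2 Foxo4 probes share. They overlap by 52 bases at chrX:98454974-98455033 and chrX:98454966-98455025, read the same transcript, NM_018789, and are no independent measurements. Foxo4 A_55_P2113031 was designed to another record, the cDNA BC099460. Foxo3 A_55_P2150896, to NM_019740 at chr10:41905610-41905669, and Foxo3 A_55_P2129309, to the cDNA AK143198 at chr10:41967288-41967347, both on the minus strand, start 61.7 kb apart. Single probes read Fbxo32 (A_51_P109369, chr15:58011752-58011811, minus strand), Fbxo31 (A_51_P356283, chr8:124075949-124076008, minus strand) and Mstn (A_51_P384901, chr1:53124482-53124541, plus strand). No member probe shared 30 bases with a probe of another gene name. Which of these bases are exon, intron or untranslated in mm9 was not determined here, as no annotation of that build was used.

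Levels are log2 processed signals after quantile normalisation, and a difference is the first-named group minus the second on that scale, with the standard error (SE) of the fit. Levels of different probes are not compared. Adjusted p-values are from limma across all probes tested in a comparison, at a threshold of 0.05, and a probe is called when it passes. Signal was above background with significance on 78.89% to 89.28% of spots per array, and precision is limited by the small number of arrays. Of the 14 probes 10 were well above background on all 18 arrays, Foxo3 A_55_P2129309 on 12, Foxo4 A_55_P2150901 on 4, Foxo4 A_55_P2113026 on 3 and Mstn on 0, and none was saturated.

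Nuclear arrays lay much closer together than cytoplasmic ones. Over the 10 probes well above background throughout, the median SD of 3 arrays was 0.12 in nuclei and 0.45 in cytoplasm. Fbxo32 was spotted 10 times per array, and the SE of an array's mean from its own spots, which covers spot noise and not labelling, hybridisation or slide, was 0.02 to 0.04, against an SD of 0.06 to 0.12 between nuclear arrays of a group and of 0.23 to 0.45 between cytoplasmic arrays. The fit uses 1 spread per probe for both fractions, so its SEs and p-values rest on an average over groups whose spreads differed. That average can lie below the spread of some groups and above that of others. The wider spread in cytoplasm did not hold for every probe and muscle. Foxo3 A_55_P2150896 had an SD of 0.05 in EDL cytoplasm and 0.15 in EDL nuclei. EDL and soleus cytoplasm and TA cytoplasm 1 shared slide 1, EDL and soleus nuclei filled slide 2, TA cytoplasm 3 was on slide 3, and TA cytoplasm 2 and TA nuclei were on slide 4. In EDL and soleus the fraction and the slide cannot be told apart.

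Myofiber markers (Acta1, Ckm, Myh1, Myh2, Myh4, Myh7, Tnnt3, Tnni1 and Tnni2) were well above background on every array. Over the muscles 8 of these 9 rose in nuclei, with a median difference of 0.83, and their summed signal was 137000 to 154000 in cytoplasm and 184000 to 206000 in nuclei of EDL, 141000 to 164000 and 195000 to 198000 in soleus, and 101000 to 122000 and 161000 to 178000 in TA. The nuclear RNA Malat1 was 2.71 higher in nuclei over the muscles, at 3.15 in EDL, 3.44 in soleus and 1.55 in TA. Neat1 stood at 2.57, 2.82 and 2.96 in the same order. Xist, well above background on 15 of 18 arrays, was fitted at 4.7, 6.71 and 1.72, the last not called. Markers of other cells were present too. Over the muscles 6 of 7 endothelial, 6 of 7 fibroblast and 5 of 6 Schwann cell markers rose in nuclei, while 5 of 6 macrophage markers fell. The summed signal of the fibroblast markers was 28500 to 36200 in EDL cytoplasm and 72300 to 75400 in EDL nuclei, 34500 to 47900 and 68200 to 70500 in soleus, and 20000 to 31000 and 39200 to 42700 in TA. That of the endothelial markers was 3190 to 3520 and 5260 to 5480 in EDL, 3100 to 6070 and 5100 to 5400 in soleus, and 1620 to 2940 and 6840 to 7740 in TA. That of the Schwann cell markers was 1350 to 1450 and 3700 to 3870 in EDL, 1300 to 1730 and 2150 to 2370 in soleus, and 757 to 830 and 1390 to 1580 in TA. Macrophage markers summed to 4500 to 5920 and 2820 to 3080 in EDL, 3120 to 5300 and 2970 to 3100 in soleus, and 4190 to 7310 and 2720 to 2970 in TA. Erythroid markers (Hba-a1, Hbb-b1 and Alas2) summed to 13200 to 19900 in EDL cytoplasm and 10800 to 11200 in EDL nuclei. They summed to 12300 to 27300 and 6170 to 6700 in soleus, and 8120 to 10400 and 11700 to 12500 in TA. All 3 fell in soleus nuclei, 2 rose in TA nuclei, and none was called in EDL. None of these lists was at 0 in a group, and their part in the results was not tested. Of the 7 satellite cell markers Myod1, Cdh15 and Vcam1 were well above background on all 18 arrays, Chodl on 16, Myf5 on 12, Pax7 on 8 and Calcr on 0. Over the muscles 4 were tested, of which Chodl (2.57) and Vcam1 (0.89) rose in nuclei and Myod1 (-1.61) fell. Their summed signal was 2290 to 3680 in cytoplasm and 1030 to 1290 in nuclei of EDL, 1180 to 3780 and 1240 to 1860 in soleus, and 3470 to 8300 and 4880 to 5780 in TA.

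**Figure D1:**
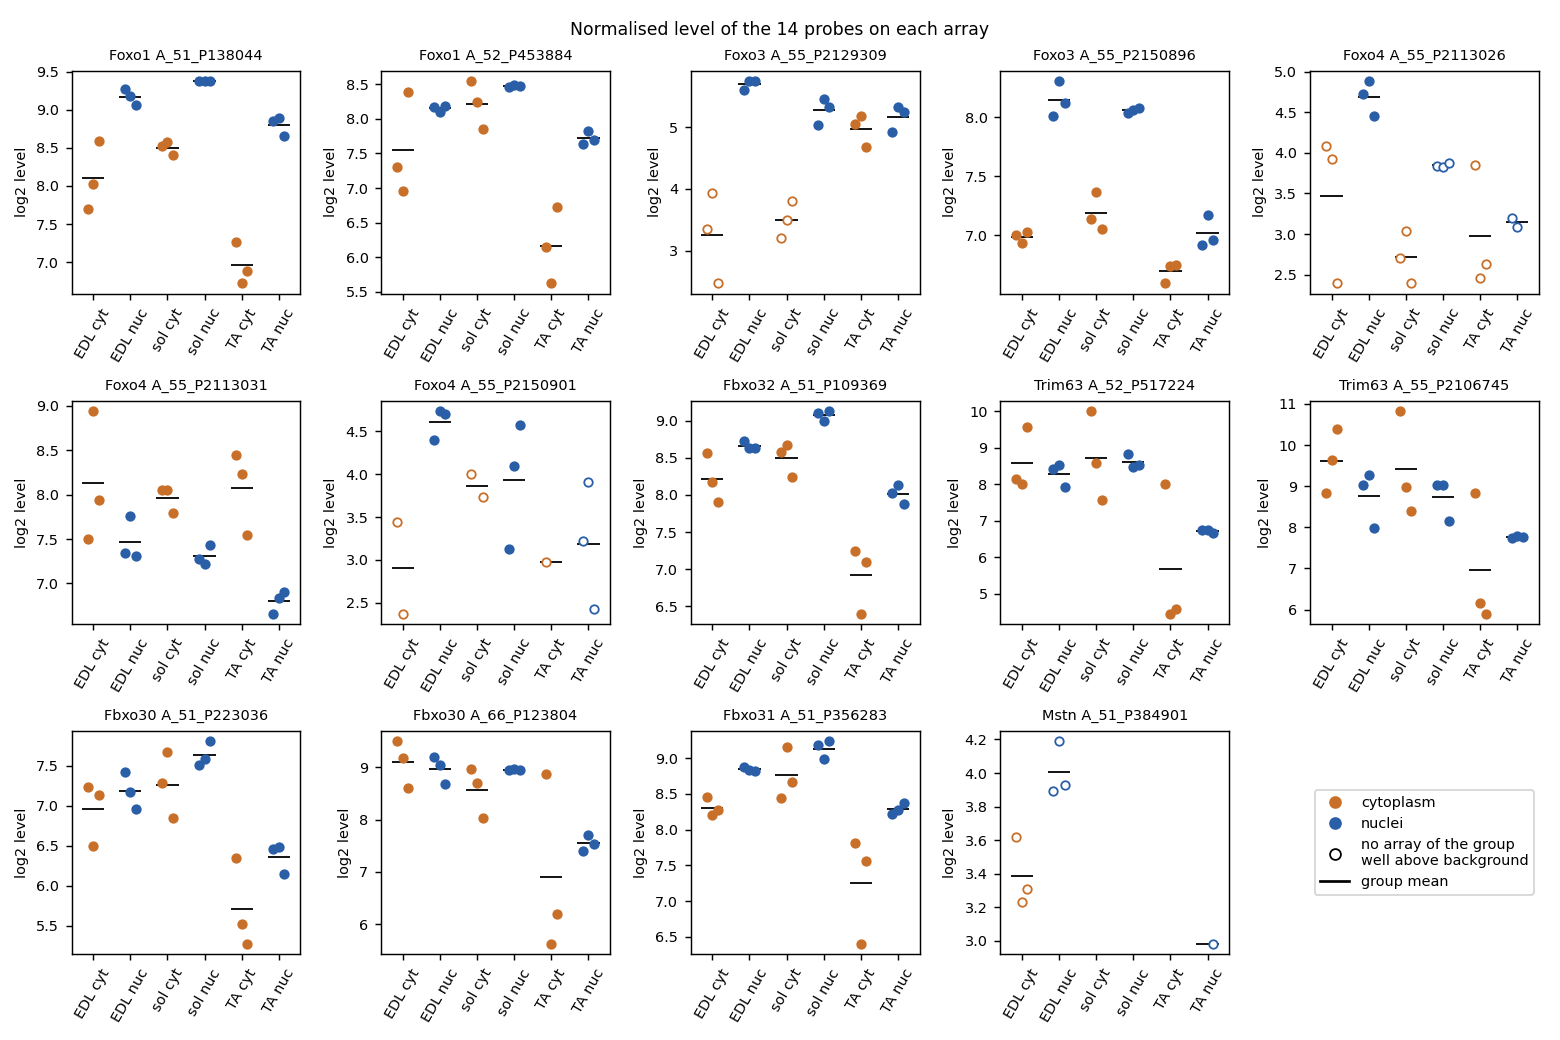
Log2 level of each of the 14 probes on each of the 18 arrays, by muscle (EDL, sol for soleus, TA) and fraction (cyt for cytoplasm in orange, nuc for nuclei in blue), with each group's mean as a line. Open points belong to groups in which no array was well above background, missing points had no significant signal, and each panel has its own vertical scale.

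Most probes of the list read higher in nuclei. Over the 3 muscles, 8 of the 12 probes tested were higher in nuclei, against 31.2% of all probes tested, and 1 was lower, against 38.6%. The 8 include Foxo4 A_55_P2113026, which was well above background on 3 arrays, all of EDL nuclei. The median difference of the 12 was 0.68, against -0.08 over all probes and 0.83 over the 9 myofiber markers. With the replicate number as a block the counts were again 8 and 1. In TA that number is no pairing by mouse, as TA cytoplasm 3 was from mouse 9 and TA nuclei 3 from mouse 3. With the 3 nuclear arrays of a muscle averaged to 1 sample, 3 were higher and 0 lower. The 3 were Foxo1 A_51_P138044 and both Foxo3 probes. Shares of all probes under these alternative fits are not given here.

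Foxo1, the FoxO factor most tied to insulin signalling, was called higher in nuclei in each muscle by 1 of its probes. Foxo1 A_51_P138044 read 7.70, 8.02 and 8.59 in EDL cytoplasm and 9.27, 9.18 and 9.06 in EDL nuclei. In soleus it read 8.52, 8.58 and 8.41 in cytoplasm and 9.38 on all 3 nuclear arrays, and in TA 7.27, 6.72 and 6.88 against 8.85, 8.89 and 8.65. Every nuclear array was above every cytoplasmic array of its muscle. The differences were 1.06 in EDL (SE 0.21, adjusted p = 0.000862), 0.88 in soleus (SE 0.21, adjusted p = 0.00416) and 1.84 in TA (SE 0.21, adjusted p = 9.93e-06) by limma, and over the muscles the probe was 1.26 higher (SE 0.12).

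The second Foxo1 probe, A_52_P453884, followed the first with less force. It read 7.30, 6.96 and 8.39 in EDL cytoplasm against 8.17, 8.10 and 8.18 in nuclei, and 8.55, 8.25 and 7.85 in soleus cytoplasm against 8.46, 8.49 and 8.47. EDL cytoplasm 3 was above all EDL nuclei and soleus cytoplasm 1 above all soleus nuclei, so the fractions overlapped, and the differences of 0.60 (SE 0.32) and 0.26 (SE 0.32) were not called, with adjusted p = 0.141 and 0.551 by limma. In EDL this turned on EDL cytoplasm 3, without which the difference was 1.02 (adjusted p = 0.00976). In TA the values were 6.15, 5.62 and 6.73 in cytoplasm against 7.64, 7.82 and 7.69 in nuclei, with no overlap and a difference of 1.55 (SE 0.32, limma adjusted p = 0.000976). Across the 18 arrays the Foxo1 probes correlated with r = 0.893.

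Foxo3, which drives both the proteasomal and the autophagic arm of muscle breakdown, was higher in EDL and soleus nuclei by both probes. Foxo3 A_55_P2150896 read 7.00, 6.93 and 7.03 in EDL cytoplasm against 8.01, 8.31 and 8.12 in nuclei, and 7.14, 7.37 and 7.05 in soleus cytoplasm against 8.04, 8.06 and 8.08. In TA it read 6.59, 6.74 and 6.75 against 6.92, 7.17 and 6.96. The fractions did not overlap in any muscle, and the differences were 1.16 (SE 0.15, adjusted p = 3.28e-05), 0.87 (SE 0.15, adjusted p = 0.000462) and 0.32 (SE 0.15, adjusted p = 0.0877) by limma, the last not called.

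Foxo3 A_55_P2129309, to the other transcript record, was the member probe whose fraction difference varied between muscles past the threshold. It read 3.35, 3.94 and 2.47 in EDL cytoplasm and 3.21, 3.49 and 3.80 in soleus cytoplasm, where no array was well above background. In EDL nuclei it read 5.6, 5.74 and 5.75 and in soleus nuclei 5.03, 5.46 and 5.32, all well above background, so the nuclear level was at least 2.84-fold higher in EDL and at least 1.82-fold higher in soleus (fitted differences 2.44 and 1.77, limma adjusted p = 1.5e-05 and 0.0003). A bound of this kind sets the brighter group's mean against, on each dim array, the lowest signal well above background or the probe's own if higher. In TA the cytoplasm read 5.05, 5.18 and 4.68 and the nuclei 4.92, 5.33 and 5.24, all well above background and overlapping, with a difference of 0.19 (SE 0.29, limma adjusted p = 0.606).

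In limma's F test of whether the fraction difference varied among muscles, Foxo3 A_55_P2129309 was the 1 member probe of 12 called (adjusted p = 0.0281), against 1.57% of all probes. The fraction difference in TA was 2.25 below that in EDL (SE 0.42, adjusted p = 0.0365) and 1.58 below that in soleus (SE 0.42, adjusted p = 0.0506). These sizes are fitted values that rest on EDL and soleus cytoplasm, where no array was well above background, and on the bounds alone the fraction difference was at least 1.51 in EDL and 0.87 in soleus on the log2 scale, beside 0.19 in TA. The replicate block took the F test to an adjusted p = 0.0692, and 10 of the 18 fits that left out 1 array lost it, namely those without any 1 of the 9 nuclear arrays or without TA cytoplasm 2, with adjusted p from 0.0561 without EDL nuclei 1 to 0.0934 without TA nuclei 1. Foxo3 A_55_P2150896 had the same order of muscles and an adjusted p = 0.113, and the 2 Foxo3 probes correlated with r = 0.48 over the arrays.

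Foxo4 split by probe. A_55_P2113031, to the cDNA BC099460, was the 1 member probe lower in nuclei. It read 7.5, 8.94 and 7.94 in EDL cytoplasm against 7.34, 7.76 and 7.31 in nuclei, with overlap, and 8.05, 8.05 and 7.79 against 7.28, 7.22 and 7.43 in soleus, without. In TA it read 8.44, 8.23 and 7.54 against 6.66, 6.84 and 6.90. The difference was -1.27 in TA (SE 0.31, limma adjusted p = 0.00285) and -0.86 over the muscles (SE 0.18, adjusted p = 0.000484), and in EDL and soleus -0.66 (adjusted p = 0.0905) and -0.65 (adjusted p = 0.102), neither called. Without EDL cytoplasm 1 the EDL difference was -0.97 (adjusted p = 0.0177), and without EDL cytoplasm 2 that in soleus had an adjusted p = 0.0369. With no scaling between arrays, which moves the median of all probes over the muscles from -0.08 to 0.42, the value over the muscles was -0.17 and that in soleus 0.54, neither called.

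The overlapping Foxo4 probes, to NM_018789, were dim. Foxo4 A_55_P2113026 was well above background only in EDL nuclei, at 4.73, 4.89 and 4.46, against 4.08, 3.93 and 2.39 in EDL cytoplasm, which puts EDL nuclei at least 1.41-fold higher (limma adjusted p = 0.0239). Foxo4 A_55_P2150901 read 4.40, 4.74 and 4.71 in EDL nuclei and 3.44 and 2.37 on the 2 cytoplasmic arrays with a value, at least 1.34-fold higher in nuclei (adjusted p = 0.0142, limma). In soleus A_55_P2113026 was called at adjusted p = 0.0401, but neither fraction was well above background and no fold is given. It had no value in TA nuclei 3, and in TA its 5 values lay between 2.46 and 3.85. Both calls in EDL were lost with scaling to the 75th percentile, at adjusted p = 0.107 and 0.0582, and that of A_55_P2113026 also without EDL cytoplasm 3 (adjusted p = 0.121), EDL nuclei 1 (0.0582) or EDL nuclei 2 (0.0723). Its call in soleus was lost in 7 of the 18 fits that left out 1 array, with adjusted p up to 0.13 without soleus cytoplasm 3.

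**Figure D2:**
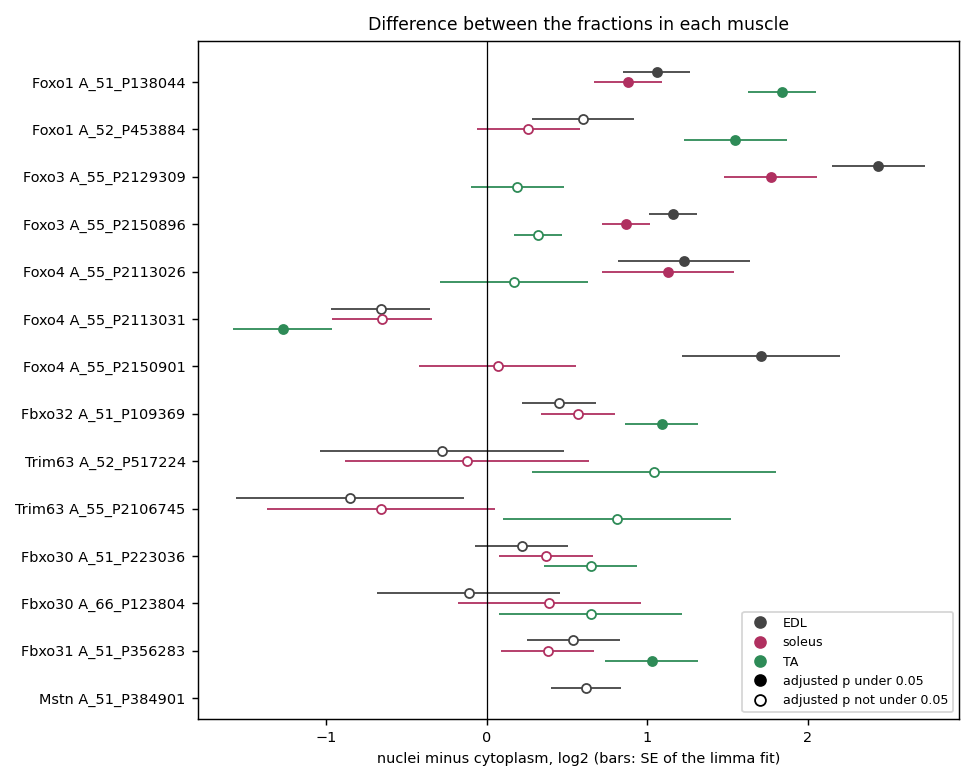
Difference between nuclei and cytoplasm (log2, horizontal axis) of each probe in EDL (grey), soleus (red) and TA (green), with the SE of the limma fit as bars; filled points passed an adjusted p of 0.05. Foxo1 A_51_P138044 is right of 0 and filled in all 3 muscles, and Foxo3 A_55_P2129309 lies at 2.44 and 1.77 in EDL and soleus, muscles whose cytoplasmic arrays were too dim to be well above background, and at 0.19 in TA.

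Among the ubiquitin ligases the fractions differed most clearly for Fbxo32, the F-box subunit that gives its SCF ligase its targets in wasting muscle. It read 8.56, 8.17 and 7.90 in EDL cytoplasm against 8.73, 8.63 and 8.63 in nuclei, and 8.58, 8.67 and 8.24 in soleus cytoplasm against 9.10, 8.99 and 9.13. In TA it read 7.25, 6.40 and 7.10 against 8.02, 8.13 and 7.88. Nuclei lay above cytoplasm without overlap in each muscle, and the differences were 0.45 in EDL (SE 0.23, adjusted p = 0.112), 0.57 in soleus (SE 0.23, adjusted p = 0.0537) and 1.09 in TA (SE 0.23, adjusted p = 0.000925) by limma. Over the muscles Fbxo32 was 0.71 higher in nuclei (SE 0.13, adjusted p = 0.000184). In EDL it was called without EDL cytoplasm 1, at 0.63 (adjusted p = 0.0445), and in soleus in 5 of the 18 fits that left out 1 array, which were those without EDL cytoplasm 1, EDL cytoplasm 3, soleus cytoplasm 2, TA cytoplasm 1 or TA cytoplasm 2 (lowest adjusted p = 0.0239).

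Fbxo31, an F-box subunit known for its part in the turnover of cyclin D1, gave a similar picture. Its values were 8.46, 8.20 and 8.27 in EDL cytoplasm against 8.88, 8.83 and 8.82 in nuclei, and in soleus 8.45, 9.16 and 8.67 against 9.18, 8.99 and 9.24. TA cytoplasm read 7.82, 6.40 and 7.56 and TA nuclei 8.22, 8.28 and 8.38. Only in soleus did the fractions overlap. The difference was called in TA, at 1.03 (SE 0.29, adjusted p = 0.00703), and not in EDL, at 0.54 (SE 0.29, adjusted p = 0.136), or soleus, at 0.38 (SE 0.29, adjusted p = 0.308), by limma. Without TA cytoplasm 2 the EDL difference was called (adjusted p = 0.028).

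Trim63, the RING ligase that acts on sarcomere proteins, was the most variable gene of the list in cytoplasm. Trim63 A_55_P2106745 read 8.84, 9.63 and 10.38 in EDL cytoplasm against 9.04, 9.27 and 7.99 in nuclei, and 10.83, 8.99 and 8.40 in soleus cytoplasm against 9.04, 9.04 and 8.15. Trim63 A_52_P517224 read 8.15, 8.00 and 9.58 against 8.41, 8.53 and 7.94 in EDL, and 10.01, 8.59 and 7.56 against 8.82, 8.47 and 8.52 in soleus. Both fractions overlapped for both probes, the differences ran from -0.85 to -0.12 with SEs of 0.71 to 0.76, and none was called. Their sign is not settled, since with no scaling between arrays A_52_P517224 was 0.38 in EDL and 1.09 in soleus and A_55_P2106745 0.55 in soleus, none of them called. The probes moved together over the 18 arrays with r = 0.942.

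In TA 1 pool decided the Trim63 result. A_55_P2106745 read 8.84 in TA cytoplasm 1 but 6.16 and 5.90 in the other 2, against 7.75, 7.8 and 7.76 in nuclei. A_52_P517224 read 8.02, 4.46 and 4.58 against 6.75, 6.75 and 6.67. TA cytoplasm 1 was thus above all TA nuclei and the other 2 cytoplasmic pools were below them. With all arrays the differences of 0.81 (SE 0.71) and 1.04 (SE 0.76) were not called, and without TA cytoplasm 1 they were 1.74 (SE 0.61, adjusted p = 0.028) and 2.20 (SE 0.55, adjusted p = 0.00463) by limma.

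Fbxo30 behaved in the same way in TA. The junction probe A_66_P123804 read 8.88 in TA cytoplasm 1, 5.62 and 6.20 in TA cytoplasm 2 and 3, and 7.40, 7.70 and 7.54 in nuclei, and the difference of 0.65 (SE 0.57, adjusted p = 0.352) became 1.64 (SE 0.30, limma adjusted p = 0.000573) without that pool. A_51_P223036 read 6.34, 5.52 and 5.27 against 6.46, 6.48 and 6.14, at 0.65 (SE 0.29, adjusted p = 0.0695) with it and 0.97 (SE 0.27, adjusted p = 0.00812) without. In EDL and soleus the fractions of both probes overlapped, with A_66_P123804 at 8.61 to 9.50 in EDL cytoplasm, 8.68 to 9.20 in EDL nuclei, 8.03 to 8.96 in soleus cytoplasm and 8.95 to 8.96 in soleus nuclei, and differences from -0.11 to 0.39 that were not called. A_51_P223036 was called over the muscles at 0.41 (SE 0.17, limma adjusted p = 0.0364), a call that 9 of the 18 fits leaving out 1 array lost, with adjusted p from 0.0532 without EDL nuclei 2 to 0.0795 without EDL cytoplasm 2.

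TA cytoplasm 1 was also the TA array on slide 1, and the other TA arrays were on slides 3 and 4. On slide 4 alone, with TA cytoplasm 2 against the 3 nuclear arrays, Trim63 A_52_P517224 was 2.27 and Fbxo30 A_66_P123804 1.93 higher in nuclei (limma adjusted p = 0.0219 and 0.00125, the lone cytoplasmic array being taken to vary like the other groups). Pool and slide cannot be told apart for this array.

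**Figure D3:**
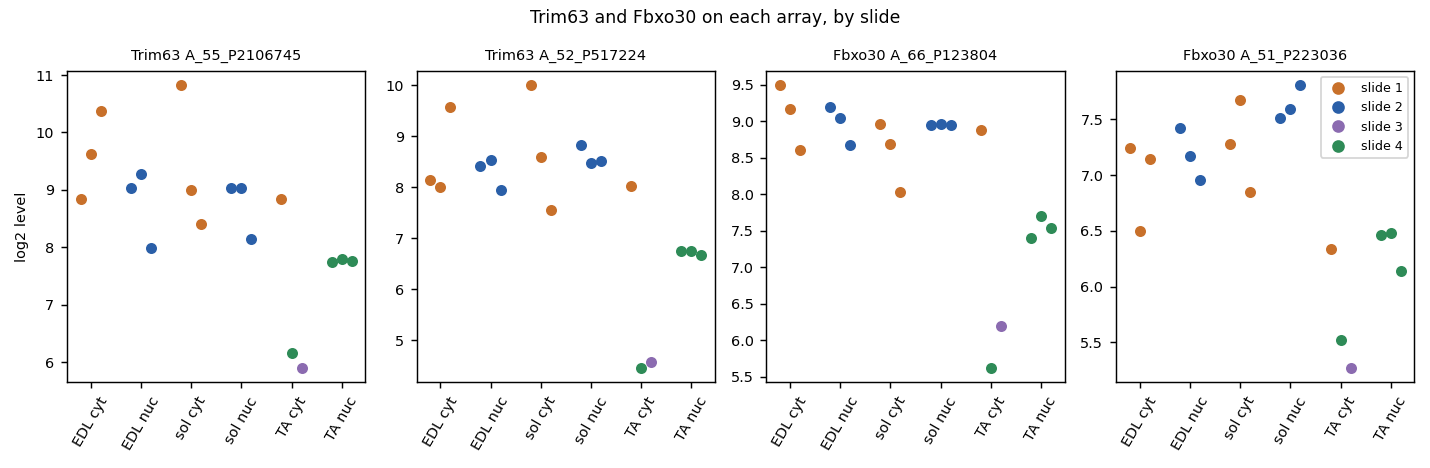
Log2 level of the Trim63 and Fbxo30 probes on each array, coloured by slide. TA cytoplasm 1 (orange) reads 8.84, 8.02, 8.88 and 6.34 from left to right, near the other arrays of slide 1 for the first 3 probes, while TA cytoplasm 2 (green) and 3 (violet) lie below all other arrays.

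By muscle, the counts were as follows. In EDL 5 of 14 probes were called higher in nuclei, against 20.0% of all probes, and 0 lower, against 26.5%, with 7 at an unadjusted p under 0.05. In soleus 4 of 13 were called higher, against 18.7%, and 0 lower, against 21.7%, with 6 at that unadjusted p. The 5 in EDL include both overlapping Foxo4 probes, which are no independent measurements and were not well above background in EDL cytoplasm. The 4 in soleus include Foxo4 A_55_P2113026, which was well above background on no soleus array. In TA 4 of 12 were higher, against 19.2%, and 1 lower, against 33.5%, and without TA cytoplasm 1 the counts were 8 and 1. Shares of all probes without that array, or at the unadjusted p, are not given here. Except for Foxo1 A_51_P138044, the probes called in TA (Fbxo32, Fbxo31, Foxo1 A_52_P453884 and Foxo4 A_55_P2113031) were not among those called in EDL or soleus. Apart from Foxo3 A_55_P2129309 no member probe tested passed the F test, so the fraction differences of those genes are not shown to differ between muscles.

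Mstn was not measurable. Its probe was well above background on 0 of 18 arrays. A significant signal was seen on all 6 EDL arrays, at 3.62, 3.23 and 3.31 in cytoplasm and 3.89, 4.19 and 3.93 in nuclei, on TA nuclei 3 at 2.98, and on no soleus array. The fractions of EDL did not overlap, but with neither well above background no fold is given, and the difference was not called (adjusted p = 0.0524 by limma). In 7 of the 18 fits that left out 1 array it was called, with the lowest adjusted p = 0.0343 without TA cytoplasm 1. Mstn had no value on that array, so leaving it out could not move the difference itself.

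Between the muscles, soleus and EDL did not differ past the threshold at any of 13 member probes, in cytoplasm (1.42% of all probes called) or in nuclei (1.56%), and 0 had an unadjusted p under 0.05 in limma. The widest 2 gaps with well measured signal were 0.67 for Foxo1 A_52_P453884 (SE 0.32) and -0.53 for Fbxo30 A_66_P123804 (SE 0.57) in cytoplasm. These intervals are wide, above all for Trim63 (SE 0.71 and 0.76), and do not show that the muscles were alike.

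TA cytoplasm was lower at every ligase probe. Against EDL 8 of 12 probes were lower, against 7.33% of all probes, and 1 was higher, against 5.12%. Against soleus 9 were lower, against 12.8%, and 1 higher, against 15.8%. Against EDL the lower probes were those of Trim63 (-2.65 and -2.89, SE 0.71 and 0.76), Fbxo30 (-1.25 and -2.19), Foxo1 (-1.15 and -1.38), Fbxo32 (-1.29, SE 0.23, limma adjusted p = 0.00394) and Fbxo31 (-1.05), and against soleus Foxo3 A_55_P2150896 (-0.50, SE 0.15) joined them. Foxo3 A_55_P2129309 was the one higher in TA cytoplasm, at least 1.72-fold against EDL and 1.48-fold against soleus. Trim63 A_52_P517224 and Fbxo30 A_66_P123804 were called although their values in TA cytoplasm overlapped those in EDL and soleus cytoplasm. So was Trim63 A_55_P2106745 against soleus. The SD of Trim63 A_52_P517224 was 2.02 in TA cytoplasm, 1.23 in soleus cytoplasm and 0.87 in EDL cytoplasm, and the fit uses 1 spread for all of them.

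Those counts rested on arrays of different slides. With slide as a term, which leaves TA cytoplasm 1 to carry the comparison within slide 1, 0 of 12 probes were called against EDL and 6 against soleus. The share of all probes called under this fit is not given here, so these counts have no measure beside them. Against EDL, Trim63 then read -0.56 (SE 0.73) and -0.78 (SE 0.80) and Fbxo30 A_66_P123804 -0.21 (SE 0.37), and against soleus the latter changed sign, to 0.32 (SE 0.37, limma adjusted p = 0.551). Fbxo32 (-1.24), Fbxo31 (-0.94), both Foxo1 probes (-1.24 and -2.06) and both Foxo3 probes (1.55 and -0.60) were still called against soleus. Leaving out 1 array moved the count against EDL to 5 without EDL cytoplasm 1, 3 without TA cytoplasm 2 and 5 without TA cytoplasm 3, and the count against soleus to 6 without TA cytoplasm 2.

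Among the nuclei the gaps between TA and the other muscles were smaller at the ligase and Foxo1 probes. They were larger at Foxo3 A_55_P2150896, which in cytoplasm stood at -0.30 against EDL and -0.50 against soleus. By fitted values they were also larger at Foxo4 A_55_P2113031 and the dim A_55_P2113026. TA nuclei were below EDL nuclei at 3 of 13 probes, against 9.81% of all probes, and below soleus nuclei at 4 of 13, against 11.9%. None was higher, against 7.59% of all probes for EDL and 7.75% for soleus. Foxo3 A_55_P2150896 was in both sets, at -1.13 against EDL (SE 0.15, adjusted p = 0.000497) and -1.05 against soleus (SE 0.15, adjusted p = 0.000423) by limma. Against EDL the others were the overlapping Foxo4 probes, with EDL nuclei at least 1.31-fold and 1.24-fold higher. Against soleus they were Fbxo32 (-1.06), Fbxo30 A_51_P223036 (-1.28) and Fbxo31 (-0.85). All TA nuclei were on slide 4 and all other nuclei on slide 2, and muscle and slide cannot be told apart there. Both counts were 7 without TA cytoplasm 1. Against EDL the count was 5 without soleus cytoplasm 2 or TA cytoplasm 2, and 1 without any of EDL nuclei 1, EDL nuclei 2, EDL nuclei 3, TA nuclei 1 or TA nuclei 3.

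Ordered by mean level, Fbxo32 stood at 9.07 in soleus nuclei, 8.66 in EDL nuclei, 8.50 in soleus cytoplasm, 8.21 in EDL cytoplasm, 8.01 in TA nuclei and 6.92 in TA cytoplasm. Of the neighbours tested in that order, TA nuclei and TA cytoplasm differed past the threshold. Soleus and EDL were not called in either fraction, although the soleus nuclei, at 8.99 to 9.13, lay above the EDL nuclei, at 8.63 to 8.73, without overlap (0.41, SE 0.23, limma adjusted p = 0.656). Foxo1 A_51_P138044 ran 9.38 in soleus nuclei, 9.17 in EDL nuclei, 8.80 in TA nuclei, 8.51 in soleus cytoplasm, 8.11 in EDL cytoplasm and 6.95 in TA cytoplasm, and within nuclei no 2 muscles differed past the threshold.

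Genes around the members were read each by 1 probe, that with the highest mean. Of 17 other ubiquitin ligases and ubiquitin system genes 3 rose in nuclei over the muscles and 2 fell, with a median of 0.16. Nedd4, a HECT ligase, rose by 0.95 and Trim32 by 0.75, while Traf6, a ligase of inflammatory signalling, was at -1.71 and Trim55, the MuRF relative that binds the sarcomere, at -1.06. Fbxo40 (0.06), Fbxo21 (0.16) and Cblb (0.03) were not called.

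Of 26 FoxO target and autophagy genes 11 rose in nuclei and 2 fell, with a median of 0.29. Named by their fitted values, the rises included the cell cycle gene Ccng2 (fitted at 2.28, with 1 of 9 cytoplasmic arrays well above background) and the stress gene Sesn3 (fitted at 1.92, with 3 of 9), and the falls were Cat, which encodes catalase, at -0.31 and Cited2 at -0.26. Ulk1 and Ulk2, the kinases that start autophagy, were 1.02 and 1.53 higher. Map1lc3b (0.29), Sqstm1 (0.46) and Ctsl (0.77) were also called higher. Map1lc3a (0.16), Gabarapl1 (0.05) and Bnip3 (0.19) were not called. Without scaling between arrays Cited2 changed sign.

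Of 18 regulators upstream of FoxO 13 rose and 2 fell, with a median of 0.64. Pik3r1 (fitted at 1.57, with 4 of 9 cytoplasmic arrays well above background) and Pik3ca (1.44), the subunits of PI3-kinase, were among the rises, and Igf1 (-0.79), the growth factor, and Foxo6 (-0.95) were the falls. Foxo6, listed here, is itself a FoxO factor and no member. In myostatin and activin signalling 14 of 19 genes tested rose and 3 fell, with a median of 0.69, and Smad7 was not tested. The receptors Acvr2a (1.09), Acvr2b (0.89) and Tgfbr1 (0.98) and the transducers Smad3 (0.95) and Smad4 (0.69) rose, as did Smad2 (fitted at 1.28, with 2 of 9 cytoplasmic arrays well above background) and the inhibitor Fst (1.13), and Inhbb (-1.08), Wfikkn2 (-0.66) and Fstl3 (-0.46) fell. Without scaling between arrays Fstl3 changed sign. These counts stand beside 31.2% of all probes higher and 38.6% lower. With no scaling between arrays they were 13 higher and 1 lower in the first list, 25 and 0 in the second, 16 and 0 in the third and 16 and 0 in the last, where 50.0% of all probes were higher and 21.3% lower.

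**Figure D4:**
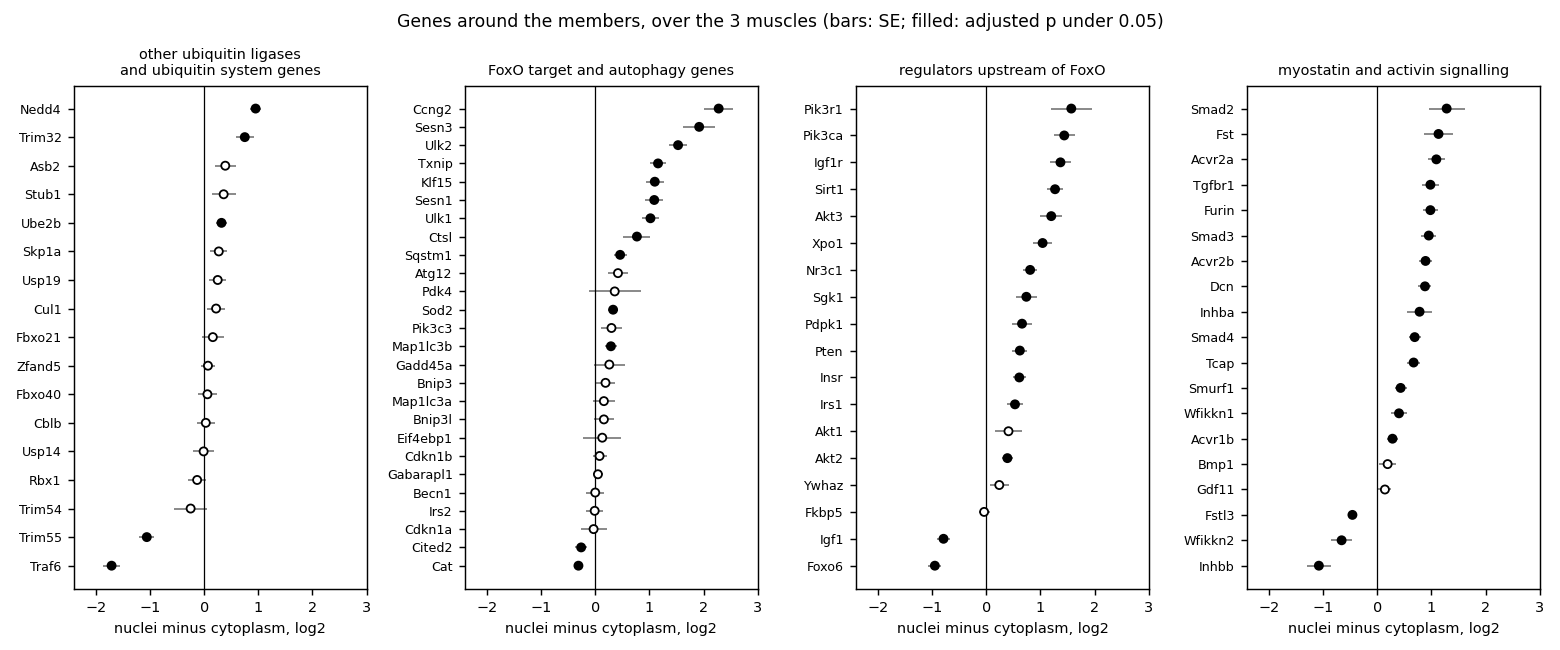
Difference between nuclei and cytoplasm over the 3 muscles (log2, horizontal axis, SE as bars) for the 4 lists of genes around the members, each gene by its brightest tested probe; filled points passed a limma adjusted p of 0.05. Of 17, 26, 18 and 19 genes, 3, 11, 13 and 14 lie right of 0 and filled.

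As a description, the genes whose level over the 18 arrays was most like that of each member's brightest probe, among 13134 coding probes well above background throughout, were Hnrnph1 and Clk1 for Foxo1 (r = 0.976 for both), Dnm1 and Lamb2 for Foxo3 (r = 0.958 for both), and Maea (r = 0.985) and Herpud2 (r = 0.979) for Fbxo32. For Trim63 they were Rabgef1 (r = 0.921) and Odc1 (r = 0.919), and for Fbxo30 Tmem223 (r = 0.973) and Csnk2a1 (r = 0.969). For Fbxo31 they were 1810013D10Rik (r = 0.98) and 2210016L21Rik (r = 0.978), and for Foxo4 E230019M04Rik (r = 0.948) and Nav2 (r = 0.917). The arrays share fractions, slides and mice.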

How the data were processed

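Per the file headers, the values used are each spot's processed intensity from Agilent Feature Extraction 10.7.3.1, after background correction and before any scaling between arrays. A deposited value table had 3687 features with a value, 0 of them among the 23 member spots, so the alternative from it was not run. Spots without significant positive signal and outlier spots were set to missing, control spots were left out, the log2 intensity was quantile-normalised over the 18 arrays, and spots of a probe were averaged. A model of 6 group means was fitted over all probes with limma 3.58.1 in R 4.3.3 and moderated with eBayes (12 residual and 3.27 prior degrees of freedom), as 2-sided tests with Benjamini-Hochberg adjustment over all probes tested. A probe needed a value on 2 of the 3 arrays of each group involved, so the over-muscle test took 12 of the 14 member probes and left out Mstn and Foxo4 A_55_P2150901.

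Fits were tested on simulated data in which every array of a probe had the same SD, unlike the fractions here. Of 200 probes changed by 2 on the log2 scale, 84.5% were recovered in EDL and 98.0% over the muscles. The F test of the interaction recovered 61.0% when TA nuclei were changed. With no change, 0 probes were called in EDL. Pools are separate samples by the labels, but TA cytoplasm 1 and 2 share mouse 5. EDL and soleus replicates of a number come from the same mice, and deviations of such arrays from their group means correlated with r between -0.11 and 0.1 over 35528 probes. Named genes were, in each of the 4 lists, the 2 with the largest differences over the muscles in each direction past the threshold. Further genes were named after their values were seen (Fbxo40, Fbxo21, Cblb, Ulk1, Ulk2, Map1lc3b, Sqstm1, Ctsl, Map1lc3a, Gabarapl1, Bnip3, Acvr2a, Acvr2b, Tgfbr1, Smad3, Smad4 and Fstl3). Members, lists and tests were chosen with earlier results of these data known. Positions are mm9 as in the array files, and the sequence of 1 Foxo4 probe is not reported here. Alternatives were other scalings, background and spot filters, the replicate block, slide, the nuclear arrays averaged, and each array left out. Shares of all probes are given for the main fit and, between fractions, in part for the fit with no scaling. Counts under the other alternatives have none beside them. Tables and figures were made with pandas 2.3.3 and matplotlib 3.10.9 in Python 3.11.15.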

Additional observations from a re-analysis of the deposited data

Results flagged for a closer look

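The difference between nuclei and cytoplasm of Foxo3 A_55_P2129309 was not the same in the 3 muscles by the test of that difference itself, limma's F test of the interaction (adjusted p = 0.0281). The call was lost with the replicate block (adjusted p = 0.0692) and in 10 of the 18 fits that left out 1 array. The probe was higher in nuclei on every array of EDL and soleus than on any of their cytoplasmic arrays, and in TA the fractions overlapped. The nuclear RNAs Malat1 and Xist also had smaller fitted differences in TA than in EDL or soleus, and Neat1 did not. Whether this bears on the Foxo3 probe was not tested. Within slide 4, which held TA nuclei and TA cytoplasm 2, the Foxo3 A_55_P2129309 difference in TA was -0.02 (SE 0.42, limma adjusted p = 0.977), where the lone cytoplasmic array is taken to vary like the other groups. In EDL and soleus the fraction and the slide cannot be told apart.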

How the results depend on the processing

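Of 3599 values of single probes recomputed under the alternatives, 3289 kept their direction and their side of the threshold, 163 lost the call, 92 gained it and 55 changed sign. Leaving out 1 array gave 2324 of the 3289. An array outside the groups compared cannot move the difference, only its SE and adjusted p, so these totals are no measure of robustness. Of the 55, 1 had been called, Fbxo30 A_66_P123804 in TA against soleus cytoplasm (0.32 with slide as a block), and 0 were called after the change. The slide block also turned Foxo3 A_55_P2129309 between fractions of TA (-0.02, and -0.02 on slide 4 alone) and, in TA against EDL cytoplasm, Foxo4 A_55_P2113026 (0.38) and A_55_P2113031 (0.31). No scaling turned, between fractions, Trim63 A_52_P517224 in EDL (0.38) and soleus (1.09), Trim63 A_55_P2106745 in soleus (0.55) and over the muscles (0.49), Fbxo30 A_66_P123804 in EDL (0.57) and Foxo4 A_55_P2113031 in soleus (0.54). In soleus against EDL it turned Trim63 A_52_P517224 (-0.06) and Foxo3 A_55_P2150896 (-0.1) in cytoplasm, and in nuclei Trim63 A_55_P2106745 (0.33), Fbxo30 A_66_P123804 (0.32), Foxo3 A_55_P2150896 (0.25) and Foxo4 A_55_P2113031 (0.17). Scaling to the 75th percentile turned the fraction difference of Fbxo30 A_66_P123804 in EDL (0.05), Foxo4 A_55_P2113026 in TA (-0.12) and Foxo4 A_55_P2150901 in soleus (-0.58). Normexp turned Trim63 A_52_P517224 over the muscles (-0.06) and Foxo3 A_55_P2129309 in soleus against EDL cytoplasm (-0.02), spots well above background Trim63 A_52_P517224 between fractions of soleus (0.06), all spots kept Foxo3 A_55_P2129309 in TA against soleus nuclei (0.01), and the replicate block Foxo4 A_55_P2113026 between fractions of TA (-0.01). Leaving out 1 array, the fraction difference ran from -0.01 to 0.36 for Fbxo30 A_51_P223036 and -0.36 to 0.09 for A_66_P123804 in EDL, -0.57 to 0.22 in EDL and -0.7 to 0.53 in soleus for Trim63 A_52_P517224, -1.17 to 0.05 in soleus and -0.41 to 0.08 over the muscles for Trim63 A_55_P2106745, -0.09 to 0.6 in TA for Foxo4 A_55_P2113026 and -0.25 to 0.48 in soleus for A_55_P2150901. Soleus minus EDL in cytoplasm ran from -0.5 to 0.72 and -0.92 to 0.3 for Trim63 A_52_P517224 and A_55_P2106745, -0.15 to 0.59 for Foxo3 A_55_P2129309 and -0.48 to 0.24 for Foxo4 A_55_P2113031, and in nuclei from -0.41 to 0.28 for Trim63 A_55_P2106745 and -0.17 to 0.09 for Fbxo30 A_66_P123804. TA minus EDL in cytoplasm ran from -0.37 to 0.35 for Foxo4 A_55_P2113031, TA minus soleus in cytoplasm from -0.08 to 0.38 for that probe and -0.17 to 0.52 for A_55_P2113026, and in nuclei from -0.23 to 0.01 for Foxo3 A_55_P2129309. The counts of probes called were 5 in EDL, 4 in soleus, 5 in TA and 9 over the muscles for nuclei against cytoplasm. With no scaling between arrays they were 9 in EDL and 9 in soleus, all higher in nuclei, where 35.4% and 57.4% of all probes were higher. With only spots well above background the EDL count was 3. In TA the count was 9 with all spots kept and 9 on the arrays of the shared scan day. With the 3 nuclear arrays of a muscle averaged to 1 sample, which leaves fewer samples, the counts were 1, 0, 1 and 3, and they were 0 for TA against EDL cytoplasm, 4 for TA against soleus cytoplasm, and 0 and 0 for TA against EDL and soleus nuclei. The replicate block left the fraction counts at 5, 4, 5 and 9 and took the interaction count from 1 to 0. No replicate block value was possible for TA against another muscle within a fraction, because their numbers are of different mice. Slide as a block gave 0 for TA against EDL cytoplasm (9 otherwise) and 6 for TA against soleus cytoplasm (10 otherwise). With all spots kept, soleus against EDL gave 1 in cytoplasm and 1 in nuclei (0 otherwise). TA against EDL nuclei went from 3 to 10 with no scaling and 5 with normexp background, and TA against soleus nuclei from 4 to 10 with no scaling. The interaction count was 3 with no scaling, 2 with normexp, and 0 with nuclear arrays averaged. Leaving out 1 array at a time gave 4 to 7 in EDL, 3 to 5 in soleus, 5 to 9 in TA, 7 to 10 over the muscles, 0 to 0 for soleus against EDL in both fractions, 3 to 9 and 6 to 10 for TA against EDL and soleus cytoplasm, 1 to 7 and 3 to 7 for the same in nuclei, and 0 to 1 for the interaction. The cause of these changes was not tested. Signal near background limits Mstn and the overlapping Foxo4 probes.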
